A study of Homo sapiens with 9 samples.

Results

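The 50 genes described here encode the proteins that license replication origins, fire them and run the replication fork. They were chosen by name, with earlier results of these data known. Their shares set against all genes below are therefore not those of an independent list. The set covers the origin recognition complex, the MCM helicase, GINS, the replicative polymerases, the sliding clamp and its loaders, and the fork protection factors. All 50 were found once each among the 58735 genes of the deposited count table, and all 50 passed the filter on low counts that left 15232 genes for testing. The cells were HEYA8, an established human ovarian cancer cell line with a wild-type genotype in the labels, which also call it high-grade serous. For 24 h they were given DMSO as the vehicle control, sunitinib, a drug that blocks a range of receptor tyrosine kinases, or compound 32, with 3 libraries per treatment, a single batch day in the labels, and no other agent or allele in any group. RNA was sequenced after enrichment of polyadenylated transcripts. The series text speaks of biological replicates for DMSO and sunitinib and not for compound 32, whose spread between libraries may be technical. Neither dose is stated, nor is any relation of compound 32 to sunitinib.

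Replication origins are licensed in G1 phase, when the origin recognition complex, CDC6 and CDT1 load a double hexamer of MCM2 to MCM7 onto DNA. In S phase the kinase CDC7 with DBF4, together with TICRR and others, recruits CDC45 and the GINS complex. These turn the hexamer into the CMG helicase (CDC45, MCM and GINS), which MCM10 helps to activate. Polymerase alpha with primase starts each strand, polymerases epsilon and delta extend it with the PCNA clamp, and FEN1 and LIG1 join the lagging strand pieces. Many of these genes are known targets of E2F transcription factors and peak around the entry into S phase.

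Total counts ran from 15498101 to 18006171 per library. Values are in CPM, which divides counts by library totals adjusted with trimmed-mean (TMM) factors. Of the markers of the ovarian carcinoma label, PAX8 lay between 114 and 136 CPM and KRT8 between 627 and 905 CPM over the 9 libraries, while MUC16 and CDH1 held 7 and 3 counts in all 9 together. KRT7 and WT1 moved with treatment, with mean levels of 72.2 and 12.4 CPM with DMSO, 224 and 5.12 CPM with sunitinib and 66.1 and 10.6 CPM with compound 32, and their part in the results was not tested. The mesenchymal gene VIM lay between 3290 and 4530 CPM. The summed level of 5 leukocyte markers was at most 0.585 CPM, that of 4 fibroblast markers at most 3.77 CPM and that of 2 erythroid markers at most 0.065 CPM in any library. Of these 3 lists, the erythroid marker HBB had no count. The 3 endothelial markers summed to 7.39 to 10.2 CPM with DMSO, 13.5 to 17.4 CPM with sunitinib and 5.44 to 6.14 CPM with compound 32, mostly from CDH5, and their part in the results was not tested. Sunitinib replicate 3 stood apart: 7.57% of its counts were in ribosomal protein genes and 4.71% in mitochondrial transcripts, against 4.14 to 4.99% and 3.05 to 3.44% in the other 8 libraries. In a chi-square comparison between libraries, it lay at 46.4 and 45.3 per degree of freedom from sunitinib replicates 1 and 2. Those 2 libraries lay at 2.18 from each other and at 36.7 to 40.9 from the DMSO libraries. Sunitinib replicate 3 was thus further from its own group than the other sunitinib libraries were from DMSO. Calls of the 50 genes that change without sunitinib replicate 3 are given both ways.

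Most of this machinery was lower with sunitinib, and more of it was higher than lower with compound 32. The 50 genes together took 0.436, 0.436 and 0.439% of all counts in the 3 DMSO libraries. With sunitinib they took 0.218, 0.223 and 0.219%, and with compound 32 0.544, 0.554 and 0.554%. The 3 groups did not overlap, and sunitinib replicate 3 lay with its group in this sum. In these bulk samples, fewer cells in S phase and less RNA per cell cannot be told apart.

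**Figure D1:**
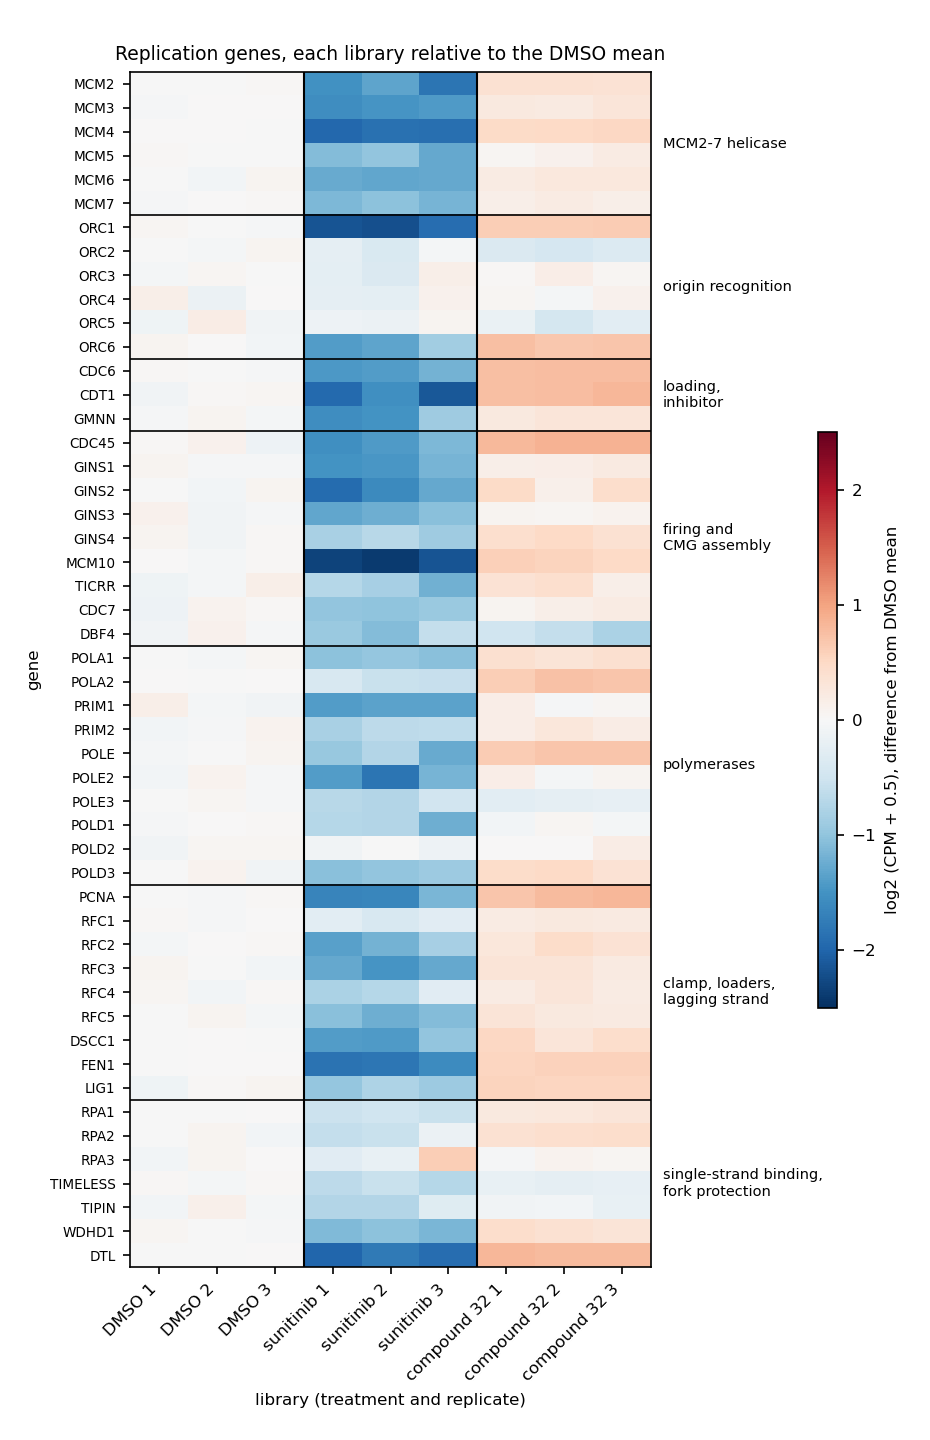
Level of each of the 50 genes (rows, grouped by role) in each of the 9 libraries (columns), as the difference of log2 (CPM + 0.5) from the mean of the 3 DMSO libraries. Blue is lower and red higher. The sunitinib columns are blue in nearly every row apart from ORC2 to ORC5, POLD2 and RPA3, and the compound 32 columns are mostly pale red, with DBF4, ORC2, ORC5, POLE3 and TIMELESS in pale blue.

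Calls rest on edgeR's quasi-likelihood test, with Benjamini-Hochberg adjustment over all 15232 genes and a threshold of 0.05. Log2 fold changes are printed ± their standard error. Under sunitinib 44 of the 50 genes fell and 0 rose against DMSO, where 19.9% of all genes tested were called lower and 20.3% higher. Their median log2 fold change was -1.10, against 0.02 for all genes tested. Of the 44, 27 fell by 2-fold or more, as did 2.23% of all genes tested. None rose by 2-fold or more, as 5.67% of all genes did. The sunitinib libraries all lay below the DMSO libraries for 45 of the 50 genes, against 25.1% of all genes. DESeq2 and limma voom also called 0 of the 50 higher, and at an unadjusted p under 0.05 edgeR's test gave 0 higher. There were 48 genes lower without sunitinib replicate 3, with ORC2, ORC3, ORC4 and RPA3 added, where 26.3% of all genes were called lower.

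Under compound 32, 27 of the 50 genes rose and 4 fell against DMSO, where 12.0% of all genes tested were called higher and 10.3% lower. The median was 0.27, against -0.000266 for all genes tested, and no change reached 2-fold, where 2.01% of all genes rose and 1.14% fell that far. The compound 32 libraries all lay above the DMSO libraries for 34 of the 50 genes, against 24.7% of all genes, and all below for 5, against 24.4%. Of the 27 calls, 18 held when any single library was left out. The other 9 were DSCC1, MCM2, MCM3, MCM6, RFC1, RFC2, RFC3, RFC5 and RPA2, with rises of at most 1.34-fold. Without DMSO replicate 1 there were 19 genes higher, and the share of all genes called higher fell as well, to 7.68%. Without sunitinib replicate 3, which shares in the estimate of the spread, there were 35 higher and 5 lower. The calls over all genes rose as well without that library, to 21.6% higher and 20.5% lower. The 8 added were GINS1, GINS2, GMNN, MCM5, MCM7, PRIM2, RFC4 and TICRR, and ORC5 was added to the genes called lower. The compound 32 libraries may be technical replicates. The spread behind all calls with compound 32, here and below, may then not be that between cultures.

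The comparisons with DMSO share its 3 libraries, so their calls are given side by side and no overlap was tested. All 27 genes that rose with compound 32 were called lower with sunitinib. DBF4, POLE3 and TIMELESS were called lower with both compounds. Another 14 fell with sunitinib and were not called with compound 32: CDC7, GINS1, GINS2, GINS3, GMNN, MCM5, MCM7, POLD1, POLE2, PRIM1, PRIM2, RFC4, TICRR and TIPIN. ORC2 was called lower with compound 32 and not with sunitinib, and ORC3, ORC4, ORC5, POLD2 and RPA3 were called in neither. With the compounds compared directly, 43 genes were higher with compound 32 than with sunitinib and 0 lower, with a median log2 difference of 1.42, where 24.1% of all genes tested were called higher and 25.2% lower. Of the 43, 34 were higher by 2-fold or more and 0 lower, against 5.38% and 8.08% of all genes. The compound 32 libraries all lay above the sunitinib libraries for 44 genes and all below for 1, ORC5, against 27.8% and 29.0% of all genes. DESeq2, limma voom and an unadjusted p under 0.05 in edgeR's test gave 0 lower as well. Other settings did call genes lower. ORC2 was called with library totals, with upper-quartile scaling and without sunitinib replicate 2 (edgeR adjusted p = 0.0441, 0.0392 and 0.0414). ORC5 was called with upper-quartile scaling (edgeR adjusted p = 0.0461). Without sunitinib replicate 3 there were 48 genes higher, with DBF4, ORC3, ORC4, POLD2 and RPA3 added, where 29.7% of all genes were called higher. The doses are not given, so this compares these cultures and not the compounds at equal dose.

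**Figure D2:**
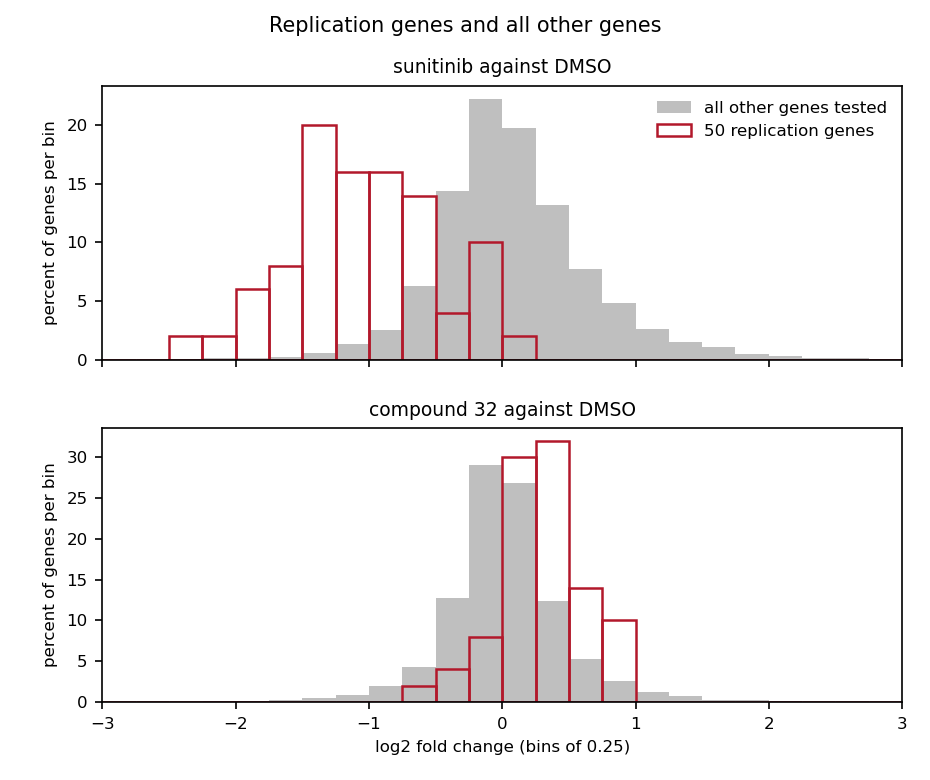
Share of genes (vertical axis, percent) in each 0.25-wide bin of log2 fold change against DMSO (horizontal axis), for the 50 replication genes (red outline) and all other genes tested (grey). The red outline has its median at -1.10 with sunitinib (top) and at 0.27 with compound 32 (bottom), while both grey distributions centre near 0.

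**Figure D3:**
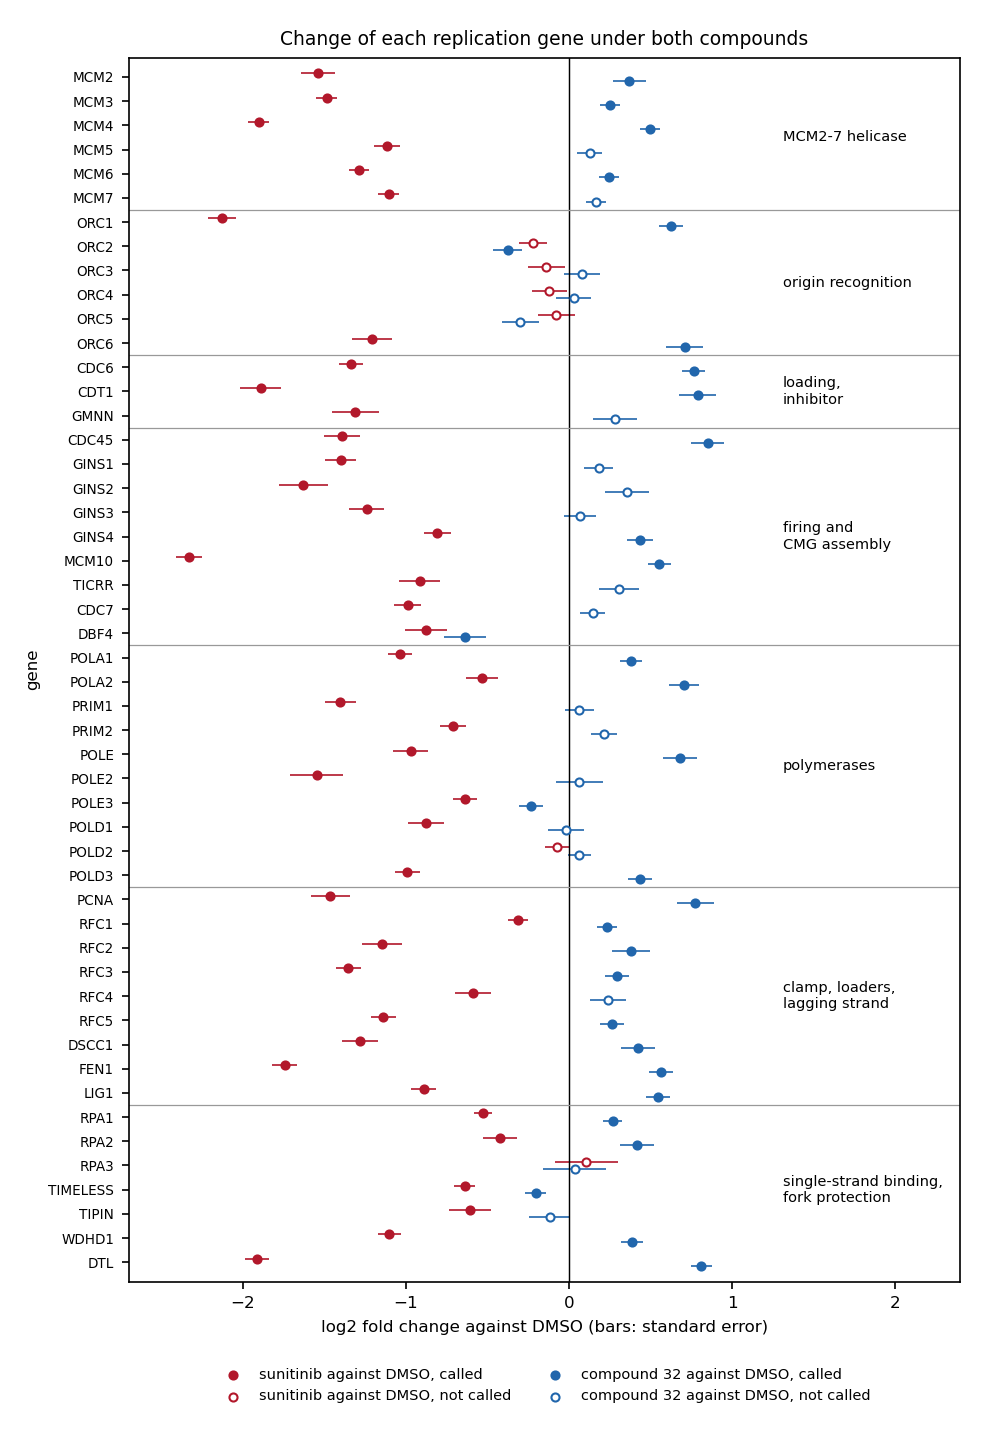
Log2 fold change against DMSO (horizontal axis, bars are standard errors) of each gene with sunitinib (red) and compound 32 (blue), with filled points for called genes. Sunitinib values reach from MCM10 at -2.33 to RPA3 at 0.11 and compound 32 values from DBF4 at -0.64 to CDC45 at 0.85.

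Many of these promoters carry the letters of an E2F site, which is why the stretches below are shown. Promoter windows of 300 bases, 250 before and 50 after the start, came from RefSeq on GRCh38.p14, where 43 of the 50 genes matched by symbol. Those not matched were DSCC1, GINS4, MCM4, MCM5, POLD3, RPA2 and RPA3. The E2F letters searched were TTTCCCGC, TTTCGCGC, TTTGCCGC and TTTGGCGC on both strands, and a gene counted once if any of its windows held a match. Of the 43 genes, 21 held at least 1 match in a window (48.8%), against 3.99% of all 27305 genes in the RefSeq table. Per window the shares were 36.8% of 57 and 3.31% of 35116. Each line gives 30 bases in the direction of the gene, 5′ to 3′, with the match in capitals, for the 6 genes with the largest change under sunitinib among those with a match wholly upstream of the start.
DTL (chr1:212035718-212035747, plus strand): caatcagagagcgtgacgtcagTTTGGCGC
CDT1 (chr16:88803743-88803772, plus strand): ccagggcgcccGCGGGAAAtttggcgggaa
GINS2 (chr16:85688967-85688996, minus strand): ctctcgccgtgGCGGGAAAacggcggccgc
MCM3 (chr6:52284898-52284927, minus strand): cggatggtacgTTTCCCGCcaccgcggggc
PCNA (chr20:5126663-5126692, minus strand): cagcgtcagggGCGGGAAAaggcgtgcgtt
RFC3 (chr13:33818083-33818112, plus strand): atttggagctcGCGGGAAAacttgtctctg

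The match began 8 bases before the start in DTL, 31 in GINS2, 35 in CDT1, 55 in RFC3, 59 in PCNA and 174 in MCM3. In CDT1, GINS2, PCNA and RFC3 it read as the reverse complement, GCGGGAAA. The 21 genes with a match had a median log2 fold change of -1.31 with sunitinib, and 20 of them fell. The 22 without a match had a median of -0.88, and 18 fell. The ranges overlapped, since MCM10 and ORC1, the steepest falls of all, held no match in this window, and ORC3, which held 1, was not called. With compound 32 the medians were 0.29 with and 0.24 without a match, with 12 and 10 genes higher. Genes for 3 E2F activators were not members and are named after their values were seen. E2F1 changed by -1.96 ± 0.07 with sunitinib and 0.92 ± 0.07 with compound 32, and E2F2 by -3.51 ± 0.23 and 0.94 ± 0.15. E2F3 had log2 fold changes of -0.34 ± 0.07 and -0.01 ± 0.07 (edgeR adjusted p = 0.00219 and 0.936).

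**Figure D4:**
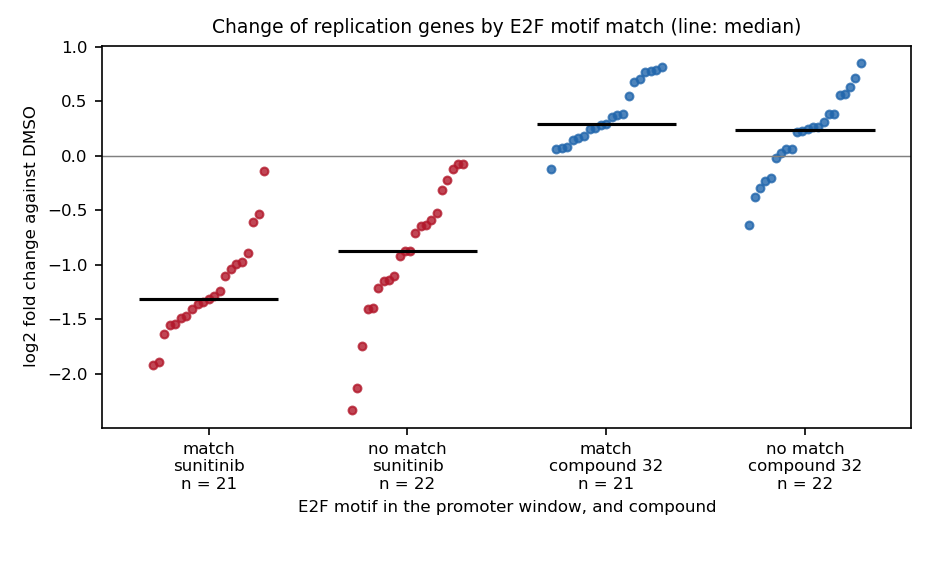
Log2 fold change against DMSO (vertical axis) of the 43 genes with a RefSeq promoter, split by whether the window held an E2F match (21) or not (22), for sunitinib (red) and compound 32 (blue). Points are genes and lines medians. The medians are -1.31 and -0.88 for sunitinib and 0.29 and 0.24 for compound 32, with overlapping ranges.

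A different set of letters, TTTGAA on either strand, which is the core of the cell cycle homology region bound by the MuvB complex at mitotic genes, stood in the windows of 2 of the 43 genes (4.65%), against 18.2% of all genes. They were DBF4 and POLE3, which were also 2 of the 4 genes that fell with compound 32. This was noticed after the values were seen. The letters are in capitals, again as the reverse complement.
DBF4 (chr7:87876478-87876507, plus strand): gcgtgacgcgttTTCAAAtcttcaaccgcc
POLE3 (chr9:113410485-113410514, minus strand): aaccactgcggcTTCAAAatccggatgcgc

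The match began 3 bases before the DBF4 start, so that it reached past it, and 128 bases before that of POLE3. A match is a description of these letters and not of a bound site. The CCAAT letters were in the windows of 58.1% of the 43 genes and 39.7% of all genes.

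The origin recognition complex, which marks origins, split into subunits that moved and subunits that hardly did. ORC1, the largest subunit and an ATPase, read 53.1, 50.8 and 50.2 CPM with DMSO, 11.2, 10.8 and 13.3 CPM with sunitinib and 78.6, 79.2 and 79.9 CPM with compound 32. No library of one treatment overlapped another. ORC1 fell 4.37-fold with sunitinib (-2.13 ± 0.08, edgeR adjusted p = 2.69e-08) and rose 1.54-fold with compound 32 (0.63 ± 0.08, edgeR adjusted p = 0.000175). ORC6, the smallest subunit, which helps load the helicase, read 37.6, 36.03 and 33.96 CPM with DMSO, 13.3, 14.1 and 19.3 CPM with sunitinib and 60.4, 57.2 and 58.4 CPM with compound 32. It moved the same ways as ORC1, by -1.21 ± 0.12 and 0.71 ± 0.11, with no overlap between treatments.

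ORC2 to ORC5, which with ORC1 form the ring of the complex, stayed within a narrow range. ORC2 read 44.3, 42.9 and 46.5 CPM with DMSO, 38.01, 33.98 and 42.8 CPM with sunitinib and 34.5, 33.4 and 35.1 CPM with compound 32. It was called only with compound 32 (-0.38 ± 0.09, edgeR adjusted p = 0.0101), and its sunitinib value was -0.22 ± 0.09 (edgeR adjusted p = 0.0631). ORC3 read 46.2, 49.2 and 47.3 CPM with DMSO, 40.2, 36.9 and 52.7 CPM with sunitinib and 48.8, 53.1 and 49.1 CPM with compound 32, and its 3 treatments overlapped. ORC3 had a 95% interval of -0.39 to 0.11 with sunitinib and -0.17 to 0.33 with compound 32. ORC4 read 40.1, 32.98 and 36.6 CPM with DMSO, 31.2, 30.6 and 39.3 CPM with sunitinib and 37.5, 35.04 and 39.3 CPM with compound 32, and ORC5 read 20.8, 25.5 and 21.03 CPM with DMSO, 20.3, 20.03 and 23.5 CPM with sunitinib and 19.9, 16.3 and 18.6 CPM with compound 32. ORC4 overlapped across all 3 treatments, while the 3 compound 32 libraries of ORC5 lay below the rest. For ORC4 these intervals were -0.36 to 0.12 and -0.21 to 0.27, and for ORC5 -0.33 to 0.17 and -0.55 to -0.04. ORC5 with compound 32 was not called (edgeR adjusted p = 0.0886). Sunitinib replicate 3 was the highest of its group for ORC2 to ORC5. Without that library ORC2, ORC3 and ORC4 were also called lower with sunitinib, at -0.31, -0.30 and -0.24 (edgeR adjusted p = 0.000303, 0.000195 and 0.00809), so that 5 of 6 subunits fell. Among all genes 26.3% were called lower without it. Without it ORC5 was called lower with compound 32, at -0.30 (edgeR adjusted p = 0.00642). Exons of ORC4 overlap those of MBD5 and ACVR2A on the other strand.

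Within a library, where no scaling enters, the log2 ratio of ORC1 counts to the sum of ORC2 to ORC5 was -1.51, -1.57 and -1.59 with DMSO. It was -3.54, -3.48 and -3.58 with sunitinib and -0.84, -0.80 and -0.83 with compound 32. The treatments did not overlap, and sunitinib replicate 3 lay with its group. Per kilobase of the deposited gene length, ORC1 had the highest level of the 6 with DMSO at 16.3 ± 0.494 CPM per kb (SD, n = 3), ahead of ORC3 at 12.9 ± 0.416 CPM per kb. With sunitinib ORC3 was highest at 11.7 ± 2.26 CPM per kb. ORC1 at 3.73 ± 0.415, ORC4 at 3.78 ± 0.549 and ORC6 at 3.62 ± 0.757 CPM per kb were then lowest and lay within their spread of each other. Compound 32 widened the lead of ORC1, at 25.1 ± 0.205 CPM per kb against 13.6 ± 0.647 for ORC3 and 13.6 ± 0.374 for ORC6. These ranks depend on the deposited lengths, which were 3157 bases for ORC1 and 8915 for ORC4.

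**Figure D5:**
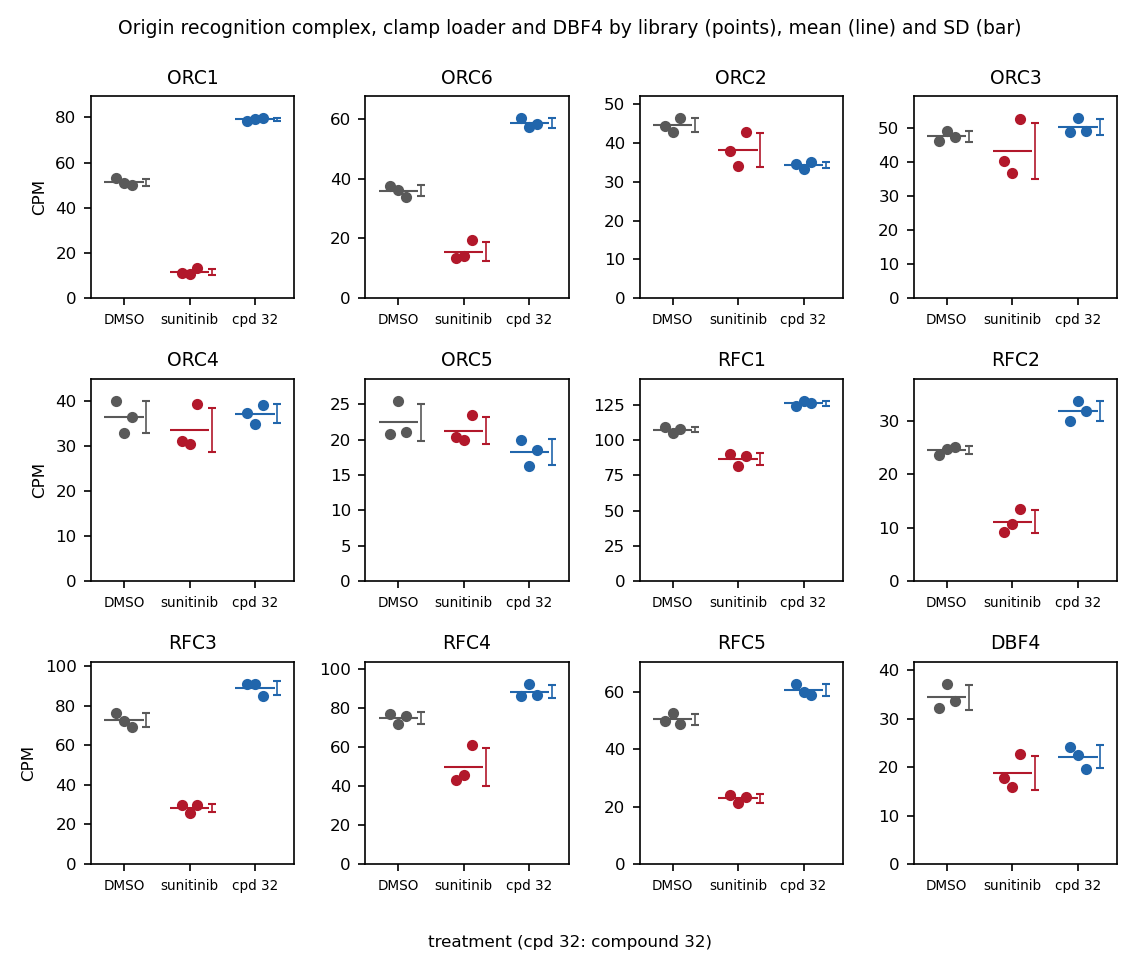
Level in CPM (vertical axes, from 0) of the 6 origin recognition genes, the 5 RFC genes and DBF4 in each library (points), with group means (lines) and SD (bars, n = 3). ORC1 and ORC6 drop with sunitinib and rise with compound 32, while ORC3 and ORC4 overlap across all 3 treatments, RFC1 shifts less than RFC2, RFC3 and RFC5, and DBF4 is lower with both compounds.

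Both loading factors fell with sunitinib and rose with compound 32, where 19.9% of all genes fell and 12.0% rose. CDC6, the ATPase that completes the loading platform, read 173, 169 and 165 CPM with DMSO, 62.4, 64.2 and 74.2 CPM with sunitinib and 284, 288 and 289.9 CPM with compound 32. CDT1, which brings the MCM hexamer to it, read 42.7, 45.99 and 47.1 CPM with DMSO, 11.3, 15.2 and 10.01 CPM with sunitinib and 76.03, 77.8 and 80.8 CPM with compound 32. Treatments did not overlap for either gene. CDC6 changed by -1.34 ± 0.07 with sunitinib and 0.77 ± 0.07 with compound 32, and CDT1 by -1.89 ± 0.12 and 0.79 ± 0.11. All 4 changes were called, with CDT1 under compound 32 at an edgeR adjusted p of 0.000503.

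GMNN encodes geminin, which binds CDT1 and blocks loading after S phase has begun. It read 50.9, 54.1 and 50.2 CPM with DMSO, 17.3, 17.9 and 27.6 CPM with sunitinib and 61.03, 64.1 and 63.5 CPM with compound 32. It fell with sunitinib (-1.31 ± 0.14) and was not called with compound 32 (0.28 ± 0.14, edgeR adjusted p = 0.169), although its 3 compound 32 libraries lay above those of DMSO. Without sunitinib replicate 3, all 3 loading genes were called higher with compound 32, where 21.6% of all genes were. The ratio of CDT1 to GMNN counts within a library was 0.838, 0.85 and 0.939 with DMSO, and 1.25, 1.22 and 1.27 with compound 32. With sunitinib it was 0.656, 0.851 and 0.362, a wide spread in which replicate 2 overlapped DMSO and replicate 3 was lowest.

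All 6 genes of the MCM2 to MCM7 helicase fell with sunitinib, by 2.15-fold (MCM7) to 3.74-fold (MCM4). Among all genes tested, 19.9% were called lower and 2.23% lower by 2-fold or more. MCM4 read 592, 596 and 584 CPM with DMSO, 152, 162 and 160.0 CPM with sunitinib and 819, 836 and 844 CPM with compound 32. MCM7, at 288, 295 and 303 CPM with DMSO, 135, 146 and 131 CPM with sunitinib and 327, 338 and 327 CPM with compound 32, fell least. Per kilobase of the deposited gene length, MCM4 had the highest level of the 6 with DMSO, at 84.7 ± 0.947 CPM per kb (SD, n = 3). It was followed by MCM7 at 67.3 ± 1.69, MCM3 at 54.9 ± 0.781, MCM2 at 32.4 ± 0.436, MCM6 at 29.9 ± 1.49 and MCM5 at 23.1 ± 0.437 CPM per kb. The highest was 3.67 times the lowest. The order changed with sunitinib, where MCM7 led at 31.3 ± 1.70 CPM per kb ahead of MCM4 at 22.6 ± 0.786, and MCM6 at 12.3 ± 0.135, MCM2 at 11.1 ± 1.96 and MCM5 at 10.6 ± 1.09 CPM per kb came last. MCM2 lay within its spread of both MCM6 and MCM5. The highest was then 2.95 times the lowest. These orders and spans depend on the deposited length, and the transcripts expressed here were not determined. Before division by length, MCM5 had a mean of 169 CPM with DMSO, above MCM2 at 159 and MCM6 at 123 CPM.

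With compound 32 the DMSO order held and the span widened to 4.72 times, with MCM4 at 119 ± 1.80 CPM per kb. In log2 counts within a library, MCM4 exceeded MCM7 by 0.95 to 1.04 with DMSO, 0.15 to 0.29 with sunitinib and 1.30 to 1.37 with compound 32, with no overlap. MCM2, MCM3, MCM4 and MCM6 were called higher with compound 32, and MCM4 rose most (0.50 ± 0.06, edgeR adjusted p = 0.000187). MCM5 (0.13 ± 0.08) and MCM7 (0.16 ± 0.06) were not called, with 95% intervals of -0.04 to 0.30 and 0.03 to 0.30. The compound 32 libraries lay above the DMSO libraries for all 6 genes, as for 24.7% of all genes. All 6 were called higher without sunitinib replicate 3, where 21.6% of all genes were. The MCM2 call was lost without any one of the 6 DMSO and compound 32 libraries (edgeR adjusted p from 0.0655 to 0.0788). With each library left out in turn, the MCM3 call was lost 2 times and the MCM6 call 4 times. Only the MCM4 call held without any single library.

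All 9 genes of origin firing and CMG assembly fell with sunitinib, where 19.9% of all genes tested were called lower. MCM10, a scaffold that activates the assembled helicase, read 68.9, 65.95 and 69.8 CPM with DMSO, 13.2, 12.6 and 14.9 CPM with sunitinib and 103, 101 and 96.4 CPM with compound 32. Its fall of 5.03-fold (-2.33 ± 0.08, edgeR adjusted p = 1.15e-08) was the steepest of the 50 genes, and ranked 9 from the lowest of all 15232 genes tested. It rose 1.47-fold with compound 32 (0.55 ± 0.07). CDC45, the helicase cofactor, read 34.4, 36.6 and 31.1 CPM with DMSO, 11.3, 12.4 and 15.3 CPM with sunitinib and 59.6, 62.1 and 62.5 CPM with compound 32. Its rise with compound 32 (0.85 ± 0.10, edgeR adjusted p = 0.000148) was the largest of the 50, and it fell with sunitinib by 1.39 ± 0.11 on the log2 scale.

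The 4 GINS subunits, which form a tetramer, all fell with sunitinib, as did 19.9% of all genes tested. GINS2 read 30.9, 29.6 and 32.4 CPM with DMSO, 7.78, 9.98 and 12.4 CPM with sunitinib and 43.1, 33.8 and 42.01 CPM with compound 32. GINS4 read 35.9, 31.8 and 34.6 CPM with DMSO, 19.3, 20.96 and 18.3 CPM with sunitinib and 45.6, 48.2 and 44.8 CPM with compound 32. For both, no treatment overlapped another. GINS1 read 36.5, 33.9 and 34.2 CPM with DMSO, 12.1, 12.4 and 15.2 CPM with sunitinib and 38.7, 39.2 and 41 CPM with compound 32, also without overlap. GINS3 read 19.2, 16.7 and 17.4 CPM with DMSO, 6.88, 7.32 and 8.39 CPM with sunitinib and 18.8, 18.3 and 18.9 CPM with compound 32, where compound 32 overlapped DMSO. GINS2 fell most (-1.63 ± 0.15) and GINS4 least (-0.81 ± 0.08), with GINS1 at -1.40 ± 0.10 and GINS3 at -1.24 ± 0.11 between them. The difference between subunits was not tested. With compound 32 the one called was GINS4 (0.44 ± 0.08), beside 0.36 ± 0.14 for GINS2, 0.18 ± 0.09 for GINS1 and 0.07 ± 0.10 for GINS3. GINS1 and GINS2 were also called higher without sunitinib replicate 3. A few exon bases of GINS2 overlap GSE1 on the other strand.

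DBF4, the regulatory subunit that activates the CDC7 kinase, was lower with both compounds. It read 32.2, 37.3 and 33.7 CPM with DMSO, 17.8, 15.9 and 22.6 CPM with sunitinib and 24.2, 22.6 and 19.6 CPM with compound 32. Both treated groups lay below DMSO, at -0.87 ± 0.13 with sunitinib and -0.64 ± 0.13 with compound 32 (edgeR adjusted p = 0.000278 and 0.00442). The difference between compounds was 0.24 ± 0.13 (edgeR adjusted p = 0.154), and it was called without sunitinib replicate 3. CDC7 itself fell with sunitinib (-0.99 ± 0.08) and was not called with compound 32 (0.14 ± 0.08, 95% interval -0.03 to 0.32). TICRR, which helps recruit CDC45, had log2 fold changes of -0.92 ± 0.13 and 0.31 ± 0.12, the second not called (edgeR adjusted p = 0.0955). It was called higher with compound 32 without sunitinib replicate 3 (edgeR adjusted p = 0.000251). Exons of DBF4 overlap those of SLC25A40 over 3.1% of their length, and those of TICRR overlap KIF7 over 7.01%, both on the other strand.

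Of the 10 polymerase genes 9 fell with sunitinib, and 4 rose and 1 fell with compound 32. Among all genes tested, 19.9% were called lower with sunitinib, and 12.0% higher and 10.3% lower with compound 32. POLE, the catalytic subunit of the leading strand polymerase, read 100.5, 103 and 109 CPM with DMSO, 53.6, 62.7 and 43.3 CPM with sunitinib and 163, 169.8 and 168 CPM with compound 32. POLE2, the B subunit, read 11.2, 12.7 and 11.6 CPM with DMSO, 4.18, 2.98 and 5.01 CPM with sunitinib and 13.2, 11.4 and 12.5 CPM with compound 32. POLE3, a histone-fold subunit that also belongs to a chromatin remodelling complex, read 163, 169.6 and 160.0 CPM with DMSO, 101, 99.1 and 117 CPM with sunitinib and 136, 141 and 142 CPM with compound 32. These 3 subunits of one enzyme got different calls with compound 32, where POLE rose (0.68 ± 0.11), POLE2 was not called (0.06 ± 0.15, 95% interval -0.25 to 0.38) and POLE3 fell (-0.23 ± 0.07, edgeR adjusted p = 0.0386). The POLE3 call was lost without any one of the 6 DMSO and compound 32 libraries, at -0.21 to -0.25. With sunitinib they changed by -0.97 ± 0.11, -1.55 ± 0.16 and -0.64 ± 0.07.

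In the polymerase alpha and primase complex, POLA1 and POLA2 rose with compound 32 while the primase genes PRIM1 and PRIM2 were not called. POLA2, the accessory subunit, read 11.3, 11.2 and 11.4 CPM with DMSO, 8.42, 7.56 and 7.48 CPM with sunitinib and 17.6, 19.1 and 18.7 CPM with compound 32. POLA1, the catalytic subunit, read 39.05, 37.6 and 40.7 CPM with DMSO, 18.9, 19.8 and 18.6 CPM with sunitinib and 51.7, 49.3 and 51.9 CPM with compound 32. Neither gene overlapped between treatments. POLA2 had the larger rise with compound 32 (0.70 ± 0.09) than POLA1 (0.38 ± 0.07), and the smaller fall with sunitinib, -0.53 ± 0.10 against -1.04 ± 0.07. These differences between genes were not tested, and 35.1% of the exon bases of POLA2 are shared with AP000944.2 on the same strand, so its counts are uncertain. PRIM1, the catalytic subunit of primase, read 31.3, 27.5 and 26.6 CPM with DMSO, 10.5, 10.97 and 10.9 CPM with sunitinib and 31.8, 27.97 and 29.3 CPM with compound 32. PRIM2, its large subunit, read 37.8, 39.3 and 42.6 CPM with DMSO, 22.5, 25.1 and 25.6 CPM with sunitinib and 45.1, 48.4 and 45.4 CPM with compound 32. With compound 32 PRIM1 overlapped DMSO, while the 3 PRIM2 libraries lay above it. PRIM1 fell with sunitinib (-1.40 ± 0.10) and had 0.06 ± 0.09 with compound 32, not called. PRIM2 had log2 fold changes of -0.71 ± 0.08 and 0.21 ± 0.08 (edgeR adjusted p = 0.0746 for the second), and was called higher with compound 32 without sunitinib replicate 3.

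Polymerase delta, which copies the lagging strand, held the one of the 10 polymerase members called in neither comparison with DMSO. POLD2, its B subunit, read 164, 181 and 180.3 CPM with DMSO, 165, 174 and 159.9 CPM with sunitinib and 176, 176 and 198 CPM with compound 32. Both treated groups overlapped DMSO. Its 95% intervals were -0.23 to 0.09 and -0.09 to 0.22. POLD1, the catalytic subunit, read 94.8, 97.2 and 98.3 CPM with DMSO, 58.9, 57.8 and 41.4 CPM with sunitinib and 92.1, 101 and 94.1 CPM with compound 32. POLD3, an accessory subunit, read 51.96, 55.9 and 49.6 CPM with DMSO, 25.1, 26.4 and 27.7 CPM with sunitinib and 72.3, 73.8 and 67.1 CPM with compound 32. POLD3 did not overlap between treatments, and POLD1 overlapped between DMSO and compound 32. POLD1 fell with sunitinib (-0.88 ± 0.11) and had -0.02 ± 0.11 with compound 32, where POLD3 rose (0.44 ± 0.07). POLD1 and POLE were lowest in sunitinib replicate 3, at 41.4 CPM against 58.9 and 57.8 for POLD1 in the other 2.

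All 9 genes of the clamp, its loaders and lagging strand processing fell with sunitinib, and 8 rose with compound 32. Among all genes tested, 19.9% were called lower with sunitinib and 12.0% higher with compound 32. PCNA, the sliding clamp that tethers polymerases to DNA, read 136, 134 and 139 CPM with DMSO, 43.3, 43.7 and 61.8 CPM with sunitinib and 221, 238 and 242 CPM with compound 32. FEN1, the flap endonuclease that trims Okazaki fragments, read 168, 169 and 169.7 CPM with DMSO, 46.6, 47.99 and 56.8 CPM with sunitinib and 245, 252 and 252 CPM with compound 32. Both had no overlap between treatments. PCNA changed by -1.46 ± 0.12 and 0.77 ± 0.11, FEN1 by -1.74 ± 0.08 and 0.56 ± 0.07, and the ligase gene LIG1 by -0.89 ± 0.08 and 0.54 ± 0.07. Exons of FEN1 overlap FADS2 on its own strand and TMEM258 on the other over 1.98% and 6.7% of their length.

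The 5 clamp loader genes all fell with sunitinib, as did 19.9% of all genes tested, and differences between them were not tested. RFC1, the large subunit, read 109, 105 and 108 CPM with DMSO, 89.8, 81.6 and 88.7 CPM with sunitinib and 124, 128 and 126 CPM with compound 32. RFC3, one of the 4 small subunits, read 76.3, 72.2 and 69.1 CPM with DMSO, 29.6, 25.9 and 29.6 CPM with sunitinib and 90.9, 91.1 and 84.7 CPM with compound 32. In both, the sunitinib libraries lay below DMSO and the compound 32 libraries above it. RFC1 fell by 0.31 ± 0.06 on the log2 scale, the smallest fall called among the 50 genes, and RFC3 by 1.35 ± 0.08. RFC2 read 23.6, 24.8 and 25.1 CPM with DMSO, 9.26, 10.6 and 13.5 CPM with sunitinib and 30.1, 33.8 and 31.9 CPM with compound 32. RFC5 read 49.8, 52.7 and 49.01 CPM with DMSO, 24.1, 21.3 and 23.4 CPM with sunitinib and 63.03, 60.01 and 58.99 CPM with compound 32. Their sunitinib levels lay well below DMSO, as for RFC3. RFC4 read 76.99, 71.7 and 76.1 CPM with DMSO, 42.98, 45.5 and 61.2 CPM with sunitinib and 86.4, 92.6 and 86.6 CPM with compound 32. None of the 5 overlapped between treatments. RFC2 (-1.15 ± 0.12) and RFC5 (-1.14 ± 0.07) lay nearest to RFC3, and RFC4 (-0.59 ± 0.11) lay between these and RFC1. In RFC4, sunitinib replicate 3 at 61.2 CPM lay above the other 2 at 42.98 and 45.5 CPM. With compound 32 the 5 RFC genes lay between 0.23 ± 0.06 (RFC1) and 0.38 ± 0.12 (RFC2), with RFC4 not called (edgeR adjusted p = 0.148). RFC4 was called too without sunitinib replicate 3 (0.24, edgeR adjusted p = 7.53e-05), so that all 9 genes of the clamp, loader and lagging strand group were higher. The share of all genes called higher was then 21.6%. The calls of DSCC1, RFC1, RFC2, RFC3 and RFC5 with compound 32 were each lost without some other single library. DSCC1, a subunit of an alternative loader that acts with sister chromatid cohesion, changed by -1.28 ± 0.11 and 0.42 ± 0.10. RFC4 and RFC5 overlap the more abundant genes EIF4A2 and WSB2 on the other strand over 0.701% and 5.72% of their exon bases.

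Of the single-strand binding and fork protection genes, 6 of 7 fell with sunitinib, and 4 rose and 1 fell with compound 32. The shares over all genes were 19.9% lower with sunitinib, and 12.0% higher and 10.3% lower with compound 32. DTL, the substrate receptor of a ubiquitin ligase that destroys CDT1 in S phase, read 64.4, 64.3 and 64.9 CPM with DMSO, 15.99, 18.5 and 16.97 CPM with sunitinib and 115, 112 and 112 CPM with compound 32. No treatment overlapped another, with log2 fold changes of -1.91 ± 0.07 and 0.81 ± 0.07 (edgeR adjusted p = 1.55e-08 and 7.8e-06). WDHD1, which links polymerase alpha to the helicase, changed by -1.10 ± 0.07 and 0.39 ± 0.07. TIMELESS and TIPIN encode the partners of the fork protection complex. TIMELESS read 146, 139 and 145 CPM with DMSO, 91.1, 97.4 and 87.2 CPM with sunitinib and 127, 122 and 124 CPM with compound 32, and was lower with both compounds (-0.64 ± 0.06 and -0.20 ± 0.06). The second call (edgeR adjusted p = 0.0354) was lost without any one of the 6 DMSO and compound 32 libraries, at -0.20 to -0.23. TIPIN fell with sunitinib (-0.61 ± 0.13) and had -0.12 ± 0.13 with compound 32 (95% interval -0.40 to 0.16).

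RPA is the trimer that coats single-stranded DNA, and 2 of its 3 subunits were called in both comparisons with DMSO. RPA1 read 226, 224 and 229.5 CPM with DMSO, 156, 161 and 154 CPM with sunitinib and 268, 270.5 and 279.8 CPM with compound 32. RPA2 read 49.2, 51.9 and 47.5 CPM with DMSO, 32.7, 33.7 and 44.6 CPM with sunitinib and 64.7, 66.5 and 66.9 CPM with compound 32. Neither gene overlapped between treatments. RPA1 and RPA2 fell with sunitinib (-0.53 ± 0.06 and -0.42 ± 0.11) and rose with compound 32 (0.27 ± 0.06 and 0.42 ± 0.10). RPA3, the smallest subunit, read 27.9, 30.8 and 29.8 CPM with DMSO, 24.2, 25.98 and 45.3 CPM with sunitinib and 28.7, 31.5 and 30.5 CPM with compound 32. Sunitinib replicate 3 was the highest of the 9 libraries for RPA3 and the other 2 sunitinib libraries the lowest. Its log2 fold change with sunitinib was 0.11 ± 0.19 with all libraries (edgeR adjusted p = 0.691) and -0.24 without replicate 3 (edgeR adjusted p = 0.014). Over the 50 genes, that library was the highest of the 3 sunitinib libraries for 28 and the lowest for 14. The median coefficient of variation was 10.3% with sunitinib, 4.03% with DMSO and 3.39% with compound 32.

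Other replication genes that are not among the 50 were taken from a list of 33, of which 32 passed the count filter. With sunitinib 24 fell and 1 rose, with a median of -0.80, where 19.9% of all genes tested were called lower and 20.3% higher. With compound 32, 9 rose and 3 fell, with a median of 0.13, where 12.0% of all genes were called higher and 10.3% lower. CLSPN, an adaptor that links the fork to checkpoint signalling, read 64.6, 58.6 and 63.9 CPM with DMSO, 12.9, 13.8 and 12.9 CPM with sunitinib and 107, 107 and 97 CPM with compound 32, without overlap (-2.24 ± 0.08 and 0.73 ± 0.07). ESCO2, which acetylates cohesin at the fork (-1.69 ± 0.09 and 0.59 ± 0.08), and the nuclease and helicase DNA2 (-1.39 ± 0.08 and 0.67 ± 0.08) moved the same ways. The one gene that rose with sunitinib was POLD4, the smallest polymerase delta subunit, which read 3.96, 3.90 and 3.15 CPM with DMSO and 8.47, 9.67 and 6.57 CPM with sunitinib (1.17 ± 0.22, edgeR adjusted p = 0.0016). The 3 that fell with compound 32 were the topoisomerase genes TOP1 (-0.28 ± 0.06) and TOP2A (-0.74 ± 0.06) and DBF4B (-0.51 ± 0.07), a paralog of DBF4. CINP, ETAA1, LRWD1, MCM9, POLE4, RNASEH2B and RNASEH2C were called with neither compound. RNASEH2A did not pass the filter, at 0.124 to 0.717 CPM over the 9 libraries. Without sunitinib replicate 3, 14 of the list rose and 8 fell with compound 32, where 21.6% of all genes were called higher and 20.5% lower. With sunitinib 26 then fell, where 26.3% of all genes were called lower.

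The neighbouring phases of the cell cycle were measured from lists as well. Of 24 genes of G2 phase and mitosis, 22 fell with sunitinib (median -0.90) and 22 fell with compound 32 (median -0.78), where 27 of the 50 replication genes rose. The shares of all genes called lower were 19.9% with sunitinib and 10.3% with compound 32. Without sunitinib replicate 3 the 22 that fell became 24 and 23, and 1 gene, CDK1, rose with compound 32. The shares of all genes called lower were then 26.3% and 20.5%. Of 23 measured factors of the G1 to S transition, 16 fell and 2 rose with sunitinib. The shares over all genes were 19.9% lower and 20.3% higher. The 2 that rose were the retinoblastoma family gene RBL2 (0.48 ± 0.10) and the cyclin kinase inhibitor gene CDKN1A (0.46 ± 0.07). With compound 32, 11 rose and 3 fell, where 12.0% of all genes were called higher and 10.3% lower. Without sunitinib replicate 3, 14 rose and 5 fell, against shares of 21.6% and 20.5%. The 3 that fell with all libraries were the E2F genes E2F4 (-0.34 ± 0.06) and E2F5 (-0.98 ± 0.12) and the inhibitor gene CDKN1B (-0.40 ± 0.09). CCNE2, a cyclin of S phase entry named after its values were seen, changed by -2.05 ± 0.12 and 1.84 ± 0.10. The part of cell cycle position in the values of the 50 genes was not tested.

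The genes at the extremes lie apart in the genome. On GRCh38, MCM10 (ENSG00000065328) lies on chromosome 10 from 13161554 to 13211104, ORC1 (ENSG00000085840) on chromosome 1 from 52372829 to 52404459, DTL (ENSG00000143476) on chromosome 1 from 212035553 to 212107400, CDC45 (ENSG00000093009) on chromosome 22 from 19479459 to 19520612 and DBF4 (ENSG00000006634) on chromosome 7 from 87876216 to 87909541. Of the 50 genes, 21 have exons that overlap those of another gene. For 12 of them that gene held more than 10% of the member's counts. No source used here says whether reads were counted by strand. Reads on the shared bases of a pair on opposite strands therefore cannot be assigned here. Strand would not separate a pair on the same strand. One such pair is PRIM1 and NACA, with 3326 and 56908 counts, which share 1.35% of the exon bases of PRIM1.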

How the data were processed

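RNA from 9 libraries of HEYA8 cells was measured as whole-number read counts per gene, deposited by the authors as 1 table with gene lengths. The submitters' processing notes name fastp, HISAT2 2.0.5, featureCounts, DESeq2 and edgeR, and the builds hg38 and mm10, without saying which step each served. The coordinates of all 50 genes equalled those of GENCODE 29 on GRCh38. No source used here gives the strand or multi-mapping setting.

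The deposited counts were filtered with filterByExpr, which left 15232 genes, scaled with TMM (factors 0.983 to 1.051) and fitted over all 9 libraries with edgeR 4.0.16 (quasi-likelihood F test, robust) in R 4.3.3. Adjusted p-values are Benjamini-Hochberg over all genes tested, with calls under 0.05. A standard error is the log2 fold change divided by the square root of F. CPM uses the TMM-scaled totals, and levels per kb divide it by the deposited gene length. Alternatives were other scalings and filters, DESeq2 1.42.0, limma 3.58.1 voom, a replicate block, a stricter threshold, the 6 libraries compared alone and each library left out. The fit was tested on simulated data with changes of 1.5-, 2- and 4-fold, where 70.1 to 82.1% of the 2-fold changes were recovered.

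The members and gene lists were chosen with earlier results of these data known. Values per library are given for the 8 members with the largest called change in each comparison with DMSO and for members called in neither. They are also given for the member subunits of the origin recognition complex, GINS, the clamp loader, the polymerases and RPA. Of other complexes with mixed calls, such as MCM2 to MCM7, only some members have them. DBF4, GMNN, MCM7 and TIMELESS were added outside this rule. Members called in opposite directions are named, and the other members are given by fold change or count. Listed genes outside the 50 are named when among the 3 largest changes or called in neither comparison. Other names were chosen after their values were seen. A planned search of member proteins for PCNA-binding motifs was not analysed here.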

Additional observations from a re-analysis of the deposited data

How the results depend on the processing

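With sunitinib the 50 genes gave 44 to 48 falls and 0 rises over all settings tried, and all 44 calls held without any single library. The median log2 fold change was -1.02 with upper-quartile scaling, which moved the median of all genes to 0.10 and split the calls over all genes into 25.9% higher and 15.2% lower. With each library left out it ran from -1.11 to -1.06. With each library left out, RPA3 ran from -0.24 (adjusted p = 0.014 in edgeR's test, without sunitinib replicate 3) to 0.27 for sunitinib against DMSO. For compound 32 against sunitinib it ran from -0.24 to 0.28, the latter without sunitinib replicate 3.

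Compound 32 against DMSO depended more on the setting. Leaving out 1 library gave 19 to 35 genes higher, 2 to 5 lower and a median of 0.26 to 0.28. The 19 came without DMSO replicate 1, where 7.68% of all genes were called higher. The 35 came without sunitinib replicate 3, where 21.6% were. There were 35 higher and 5 lower with the 6 libraries fitted alone, where 22.4% of all genes were called higher and 21.5% lower. At an adjusted p under 0.01 there were 18 higher and 1 lower, against 6.41% and 4.85% of all genes. The main shares were 12.0% and 10.3%. The median was 0.28 with genes of at least 5 CPM. Against sunitinib, leaving out 1 library gave 43 to 48 higher, 0 to 1 lower and a median of 1.40 to 1.44. Upper-quartile scaling gave 2 lower, ORC2 and ORC5, and a median of 1.34, and library totals gave 1 lower, ORC2. All 43 calls of compound 32 against sunitinib held without any single library.

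Deviations of same-numbered libraries from their group means correlated between -0.077 and 0.061, and those of different-numbered libraries between -0.061 and 0.088. Not every library correlated best with its own number. Values this small, with 3 libraries a group, neither show nor exclude a pairing by number. The replicate block gave 44 lower with sunitinib and, with compound 32, 27 higher and 2 lower, without POLE3 and TIMELESS (edgeR adjusted p = 0.0619 and 0.069).

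Without sunitinib replicate 3, an alternative chosen after seeing the data for the gene groups, the origin recognition genes that fell with sunitinib went from 2 to 5. The share of all genes called lower went from 19.9% to 26.3%. With compound 32 against DMSO, origin recognition genes lower went from 1 to 2, firing genes higher from 3 to 6, other replication genes from 9 to 14 higher and 3 to 8 lower, G1 to S factors lower from 3 to 5 and G2 and mitosis genes higher from 0 to 1. The shares of all genes called rose with them, to 21.6% higher and 20.5% lower. Against sunitinib, origin recognition genes higher went from 2 to 4, other replication genes lower from 1 to 3 and G1 to S factors lower from 3 to 5. Of all genes, 29.7% were then called higher and 29% lower. The cause was not tested. In simulated data with 3 libraries a group, 46.3% of 1.5-fold changes were recovered for sunitinib against DMSO. For compound 32 it was 61.2% against DMSO and 52.2% against sunitinib. The changed genes were drawn from all genes tested, and smaller changes were not simulated. A change of 1.5-fold or less that is not called here may therefore have been missed.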
